A study of Mus musculus with 9 samples.

Results

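The genes described here are the interferon-inducible and antigen processing genes of the neonatal mouse heart. These 41 genes encode interferon-inducible GTPases, immunoproteasome subunits, proteins that load peptides on class I molecules, transcription factors of the interferon response and antiviral proteins. They were chosen by name, not by a threshold on their values, but with earlier results of these data known. Of the 41 genes, 38 were measured by a probe set with 1 gene symbol, out of 22180 genes measured in all. *Ifi47*, *Gbp2* and *Oas1a* are covered only by probe sets that name a further gene, and they entered no comparison. Whole hearts were taken at postnatal day 2 and their RNA was measured on Affymetrix Mouse Genechip ST 2.0 arrays, 3 for each of 3 genotypes and 9 in all. Wild-type hearts (replicates 1 to 3) were compared with *miR-1-1* null hearts (replicates 4 to 6), which lack both copies of 1 of the 2 genes for the muscle microRNA *miR-1*. They were also compared with double-heterozygous hearts (*miR-1-1*+/-:*miR-1-2*+/-, replicates 7 to 9), which lack 1 copy of each gene. The comparisons ask how transcripts respond to a partial loss of *miR-1*.

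All 3 genotypes shared the Mixed 129 x C57BL/6 background, and the share of each strain in a given pup is not stated in the labels. The *miR-1-1* allele was made in 129-derived E14 embryonic stem cells. In it a floxed neomycin cassette with a pGK promoter takes the place of the precursor, in every tissue and from conception. The labels do not name litters, or say whether an array holds 1 heart or a pool, so p-values measure only the spread between these arrays, which may be technical. The levels are log2 values after RMA, so a difference of 1 is a 2-fold difference. The level of one gene cannot be set against that of another, because each probe set binds with its own strength.

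Interferons are secreted proteins that cells release on sensing viral or misplaced nucleic acid. Type I interferons signal through JAK kinases to a complex with STAT2 and IRF9 that binds the interferon-stimulated response element (ISRE), and interferon gamma acts largely through the gamma-activated site (GAS). The induced genes restrict viruses and intracellular parasites, trim proteins to peptides in the immunoproteasome and present these on class I molecules. Many of them are transcribed at a low level without infection, driven by tonic interferon signalling, in the resident macrophages, endothelial cells and other cells of the heart.

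The promoters of these genes are shown first because the ISRE and the GAS are the elements through which interferon acts on them. RefSeq promoters of the assembly GRCm38.p6, running from 250 bases before to 50 bases after a gene's start, were available for 30 of the 41 genes. The core of the ISRE was searched as GAAANNGAAA on both strands, so that TTTCNNTTTC is the same core read from the other strand. At least 1 match was present in 16 of the 30 genes, or 53.3%, and in 3.99% of the 27025 genes of the whole table. These are stretches of 40 bases around 1 match in 10 of the genes, each read in the direction of the gene, with every base that lies in any match of the core in capitals. The first 7 belong to genes that were lower in a mutant genotype, and the last 3 (*Gbp3*, *Ifit3* and *Stat2*) to genes that did not pass the test in either.
Irgm2 (chr11:58214898-58214937, plus strand): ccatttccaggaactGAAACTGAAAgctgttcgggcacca
Igtp (chr11:58199507-58199546, plus strand): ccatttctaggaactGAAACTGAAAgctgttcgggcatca
Gbp7 (chr3:142530268-142530307, plus strand): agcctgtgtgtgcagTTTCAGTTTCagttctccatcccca
B2m (chr2:122147533-122147572, plus strand): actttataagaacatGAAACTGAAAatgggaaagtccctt
Isg15 (chr4:156200866-156200905, minus strand): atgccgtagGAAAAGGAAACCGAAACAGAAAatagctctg
Rsad2 (chr12:26456548-26456587, minus strand): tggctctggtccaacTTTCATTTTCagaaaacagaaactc
Bst2 (chr8:71537578-71537617, minus strand): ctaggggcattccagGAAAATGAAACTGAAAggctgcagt
Gbp3 (chr3:142559984-142560023, plus strand): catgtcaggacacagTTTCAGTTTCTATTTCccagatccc
Ifit3 (chr19:34583392-34583431, plus strand): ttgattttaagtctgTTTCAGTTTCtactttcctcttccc
Stat2 (chr10:128270261-128270300, plus strand): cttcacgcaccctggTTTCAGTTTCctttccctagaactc

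*Irgm2* and *Igtp* are neighbours with no protein-coding gene between them, and 38 of the 40 bases shown are identical in both. In *Isg15* matches of the core overlap to form 1 run. Matches were present in 10 of the 18 genes with a promoter that were lower in at least 1 mutant genotype, and in 4 of the 9 other measured genes with a promoter, so the core was found in both sets. The core of the GAS was searched as TTCNNNGAA, which reads the same on both strands. It was present in 9 of the 30 genes and in 9.55% of all genes, and in 4 of the 18 lower and 4 of the 9 other genes. In *Igtp* and *Irgm2* it lies just before the ISRE core, and in *Bst2* its last bases are also the first of the ISRE core. A match is a description of the letters and not evidence of binding.

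*Psmb9* and *Tap1*, which encode an immunoproteasome subunit and a subunit of the peptide transporter, start next to each other on opposite strands, and their promoter windows overlap over 275 bases. This block is shown because both genes had lower levels in null hearts and neither core matches in it. It has a GC content of 60.7%.
Psmb9 and Tap1 (chr17:34187306-34187580, plus strand): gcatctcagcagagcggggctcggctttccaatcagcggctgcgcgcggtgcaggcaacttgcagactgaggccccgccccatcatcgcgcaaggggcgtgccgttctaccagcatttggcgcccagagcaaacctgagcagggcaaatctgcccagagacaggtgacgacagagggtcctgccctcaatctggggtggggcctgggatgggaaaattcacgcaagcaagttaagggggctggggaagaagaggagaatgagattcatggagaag

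The arrays correlated with each other at 0.982 to 0.988. *Mir133a-2*, the precursor gene beside *miR-1-1* and outside the deleted sequence, lay between 5.45 and 6.38 in wild-type, 3.07 and 4.51 in null and 5.33 and 6.32 in double-heterozygous hearts. *Mir133a-1*, the precursor gene beside *miR-1-2*, lay between 5.42 and 6.37 in wild-type, 5.54 and 6.16 in null and 4.00 and 4.43 in double-heterozygous hearts. In each mutant genotype 1 *miR-133a* precursor was thus below all wild-type arrays, and its part in the differences described here was not tested. The probe set of *miR-1-1* itself (*Mir1a-1*) was dim, at 1.29 to 2.21 in wild-type, 0.95 to 1.29 in null and 0.92 to 1.52 in double-heterozygous hearts, with overlapping groups. *Xist*, which marks female cells, was at 7.74 in wild-type replicate 1 and 8.31 in double-heterozygous replicate 7, and the other 7 arrays were at or below 1.96, so sex was not balanced over the genotypes. The interferon-inducible genes also differed between wild-type arrays. Wild-type replicate 3 gave the highest of the 9 values for 23 of the 38 genes, or 60.5%, against 12.2% of all genes. Over the 38 genes the mean log2 level was 3.64, 3.87 and 4.19 on wild-type replicates 1, 2 and 3. It was 3.58, 3.22 and 3.44 on the null arrays, and 3.33, 3.42 and 3.49 on the double-heterozygous arrays. The median standard deviation within a genotype was 0.33 in wild-type hearts for these genes against 0.15 for all genes, and 0.21 and 0.19 against 0.14 and 0.14 in null and double-heterozygous hearts.

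Interferon-inducible and antigen processing genes were lower in *miR-1-1* null hearts than in wild-type hearts. Of the 38 genes, 21 were lower at an unadjusted p under 0.05 from limma, or 55.3%, whereas 3.15% of all genes were lower at that threshold. None was higher, against 2.57% of all genes. The log2 fold change was below 0 for 34 of the 38 genes, against 51.9% of all genes, and its median was -0.47 against -0.01 for all genes. All 3 null arrays were below all 3 wild-type arrays for 12 genes, against 4.63% of all genes, which gives each of them an exact two-sided permutation p of 0.1, the smallest that 3 against 3 arrays allow. The thresholds of the study's array methods were a p below 0.0025 together with a fold change either above 1.5 or below 0.5. At these thresholds 1 gene was called, *Psmb9*, with a fold below 0.5. Of all genes 0.0451% passed with a fold below 0.5 and 0.0812% with a fold above 1.5. With p adjusted by Benjamini-Hochberg over all genes, none was under 0.05 (0% of all genes), and the adjusted p of the 38 genes was 0.702 or more. The words lower and higher therefore stand for the unadjusted threshold throughout. Without wild-type replicate 3 the count was 10 genes, against 3.18% of all genes, with a median of -0.31, and without null replicate 5 it was 11, against 2.39% of all genes.

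The same genes were examined in double-heterozygous hearts, a comparison that shares its wild-type arrays with the one above. There 19 of the 38 genes were lower, or 50%, against 6.15% of all genes, and none was higher, against 4.45%. The log2 fold change was below 0 for 34 genes, against 55.3% of all genes, with a median of -0.42 against -0.02 for all genes. All double-heterozygous arrays were below all wild-type arrays for 15 genes, against 7.95% of all genes. These include *Irgm1* and *Usp18*, which did not pass the unadjusted threshold. *Irgm2* and *Lgals3bp* passed the study's thresholds with a fold below 0.5, against 0.0451% of all genes. With a fold above 1.5 none of the 38 passed, against 0.496% of all genes. No interferon-inducible gene passed the adjusted threshold, which 4 genes did in all (0.018%), and the smallest adjusted p among the 38 was 0.169, for *Irgm2*. Without wild-type replicate 3 the count was 11, against 5.74% of all genes, with a median of -0.24. With the 2 arrays that carried *Xist* left out, 21 genes were lower in null and 18 in double-heterozygous hearts, against 3.42% and 4.63% of all genes. With the methods' t-test, the unpaired test that the study's statistics name, run on each pair of genotypes without moderation, the counts of 21 and 19 became 7 and 9, against 1.98% and 3.84% of all genes.

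**Figure D1:**
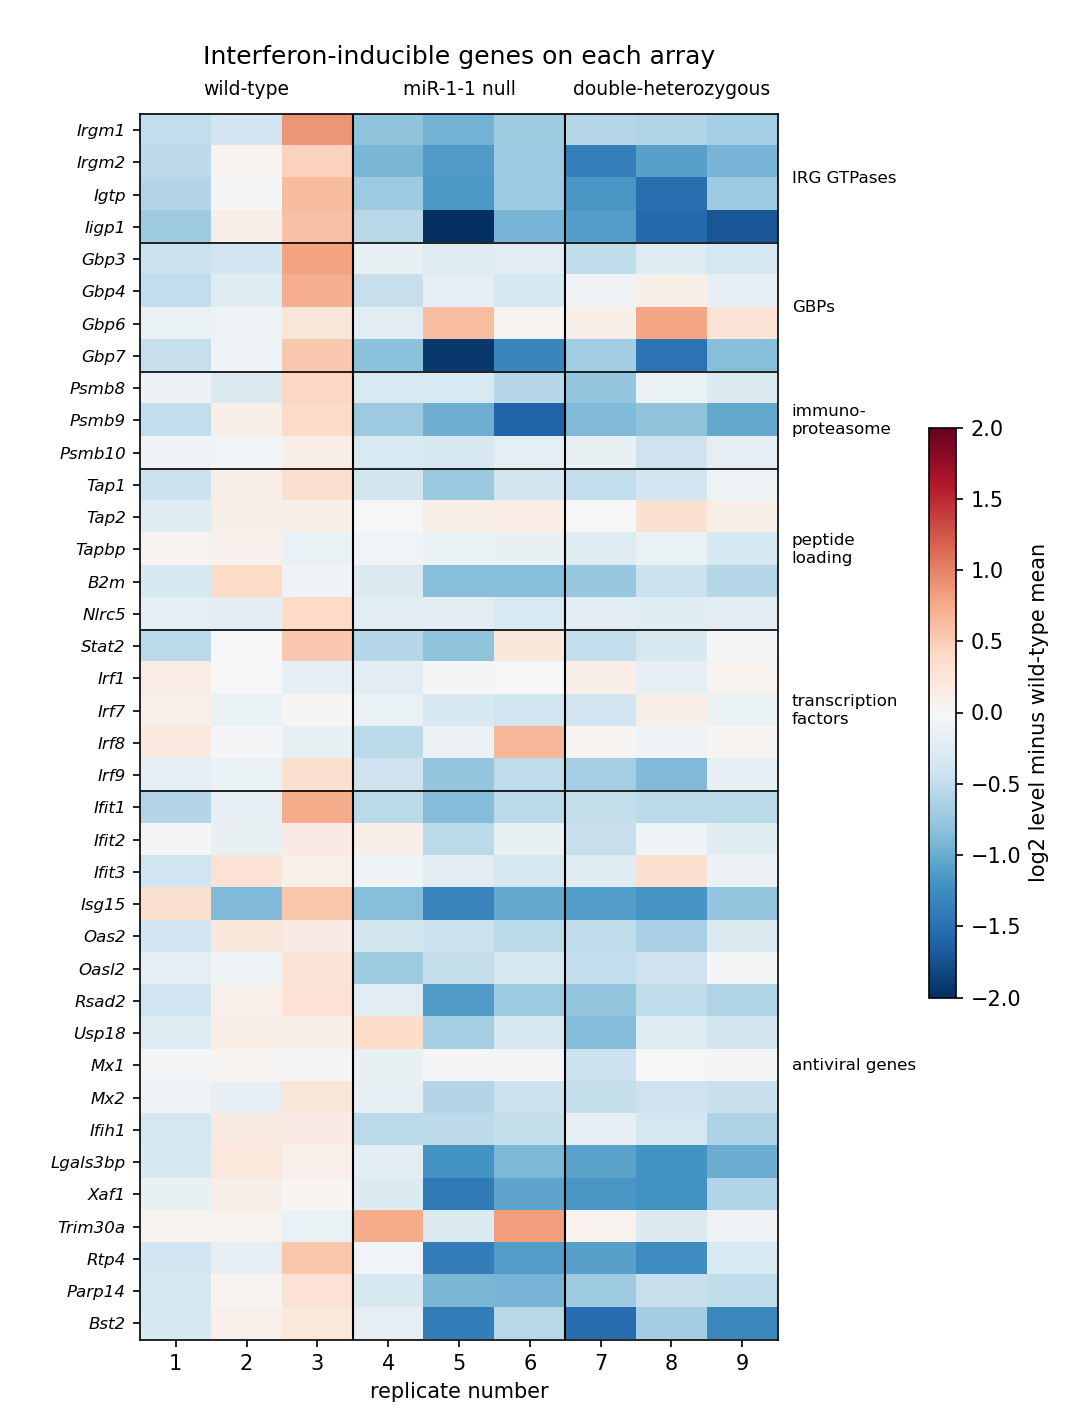
Log2 level of each of the 38 measured genes (rows, grouped by role) on each of the 9 arrays (columns, by replicate number), as the difference from the wild-type mean, with blue below and red above it. Wild-type replicate 3 holds the highest value of 23 genes, and most rows are blue on the null and double-heterozygous arrays.

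The interferon-inducible GTPases of the IRG family, which disrupt the vacuoles of intracellular parasites, come first. All 4 measured members were lower in null hearts and 3 of 4 in double-heterozygous hearts, against 3.15% and 6.15% of all genes, with median log2 fold changes of -0.89 and -1.13. In the order of replicates 1 to 9, which is kept throughout, *Irgm2* was at 3.57, 4.16 and 4.55 in wild-type, 3.17, 2.96 and 3.37 in null and 2.73, 3.01 and 3.17 in double-heterozygous hearts. All 6 mutant arrays were below the lowest wild-type array, and the log2 fold changes were -0.92 and -1.12 (standard error 0.23 for each). *Igtp*, which encodes Irgm3, a regulator of other IRG proteins, was at 3.39, 3.93 and 4.60 in wild-type, 3.25, 2.82 and 3.25 in null and 2.80, 2.47 and 3.25 in double-heterozygous hearts. It was 1.82 and 2.19 times lower, and again no mutant array reached a wild-type array. The call in null hearts was lost without wild-type replicate 3 or null replicate 5, and both *Igtp* calls were lost with the methods' t-test. *Irgm1*, a regulatory IRG protein also tied to autophagy, was at 2.84, 2.94 and 4.21 in wild-type, 2.52, 2.39 and 2.62 in null and 2.76, 2.73 and 2.65 in double-heterozygous hearts. Wild-type replicate 3 stood far above the other wild-type arrays, which lay just above the highest mutant value, and the gene was lower in null (-0.82, standard error 0.30) but did not pass in double-heterozygous hearts (-0.62, standard error 0.30). The *Irgm1* call in null hearts was lost under 4 of the 18 alternatives run for it, among them the methods' t-test. *Iigp1*, an effector IRG protein that loads on parasite vacuoles, was at 4.42, 5.25 and 5.72 in wild-type, 4.58, 3.12 and 4.20 in null and 4.02, 3.57 and 3.42 in double-heterozygous hearts. It had the most negative log2 fold change of the 38 genes in double-heterozygous hearts (-1.46, standard error 0.40, 2.75 times lower), and null replicate 4 lay above the lowest wild-type array. The call in null hearts was lost without wild-type replicate 2, wild-type replicate 3 or null replicate 5, and with the methods' t-test.

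The guanylate-binding proteins, large GTPases that coat and lyse such vacuoles, did not behave as 1 group. *Gbp7* was at 3.59, 3.97 and 4.59 in wild-type, 3.24, 2.11 and 2.75 in null and 3.35, 2.57 and 3.20 in double-heterozygous hearts. All mutant arrays were below the wild-type arrays, and it was 2.55 times lower in null (log2 fold change -1.35, standard error 0.33) and 2.01 times lower in double-heterozygous hearts (-1.01, standard error 0.33). *Gbp3*, its neighbour on the chromosome, had values of -0.21 and -0.37 and did not pass in either. *Gbp4* and *Gbp6* did not pass either, with log2 fold changes between -0.34 and 0.39, and *Gbp6* had a mean level near background. Near background here means a mean at or below 1.79, the upper quartile of 1394 olfactory and vomeronasal receptor genes.

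Among the 3 immunoproteasome subunits, which replace the standard catalytic subunits when interferon acts, *Psmb9* showed the largest difference. Its level was 4.45, 5.05 and 5.32 in wild-type, 4.21, 3.96 and 3.33 in null and 4.06, 4.13 and 3.91 in double-heterozygous hearts. Every mutant array was below every wild-type array, and the gene was 2.15 times lower in null (log2 fold change -1.11, standard error 0.26, adjusted p = 0.702 from limma) and 1.87 times lower in double-heterozygous hearts (-0.90, standard error 0.26). These calls were kept with each array left out in turn and under every other setting tried. *Psmb10* differed by less, at 6.33, 6.35 and 6.53 in wild-type, 6.09, 6.08 and 6.20 in null and 6.25, 5.99 and 6.20 in double-heterozygous hearts. It was 1.21 and 1.19 times lower, with no overlap of arrays. *Psmb8*, which lies between *Tap1* and *Tap2*, had a log2 fold change of -0.39 in each comparison and passed in neither (95% confidence interval -0.87 to 0.08 in null hearts).

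**Figure D2:**
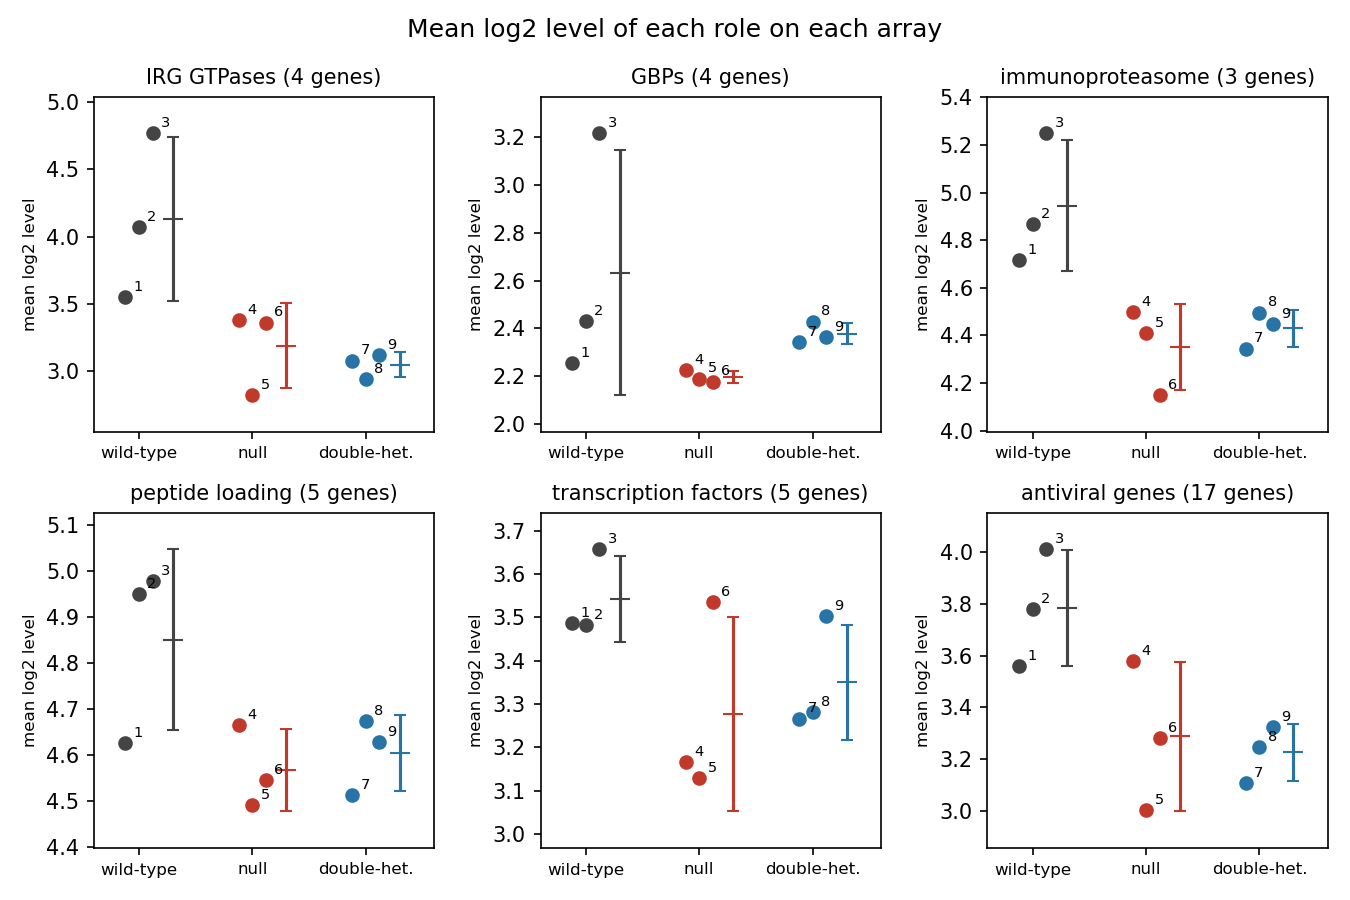
Mean log2 level over the measured genes of each role (vertical axes, which do not start at 0 and differ between panels) on each array, numbered by replicate, for wild-type, null and double-heterozygous hearts, with the mean and standard deviation of each genotype beside the points. The IRG GTPase means of the null and double-heterozygous arrays, 2.82 to 3.38, are below the wild-type means of 3.55 to 4.77, whereas those of the transcription factors overlap.

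The peptide loading genes were split. *B2m*, the light chain shared by all class I molecules, was at 10.04, 10.74 and 10.29 in wild-type, 10.06, 9.51 and 9.51 in null and 9.60, 9.92 and 9.79 in double-heterozygous hearts. It was lower in both comparisons (log2 fold changes -0.66 and -0.59, standard error 0.20), and null replicate 4 lay above wild-type replicate 1. *Tap1*, a subunit of the transporter that carries peptides into the endoplasmic reticulum, was at 4.41, 4.95 and 5.16 in wild-type, 4.48, 4.10 and 4.47 in null and 4.35, 4.46 and 4.73 in double-heterozygous hearts. Both mutant genotypes overlapped the wild-type arrays, and *Tap1* was lower in null (-0.49, standard error 0.20) but did not pass in double-heterozygous hearts (-0.33). Its partner subunit *Tap2* had values of 0.09 and 0.14 and did not pass. *Tapbp*, which encodes tapasin and bridges class I molecules to the transporter, was at 5.16, 5.20 and 4.97 in wild-type, 5.06, 4.98 and 4.96 in null and 4.87, 4.97 and 4.76 in double-heterozygous hearts. It was lower in double-heterozygous hearts (-0.24, standard error 0.10), a call lost under 10 of the 19 alternatives, and its arrays overlapped those of wild-type. *Nlrc5*, the transactivator of class I genes, was at -0.24 and -0.22 and did not pass, and its 2.45 on wild-type replicate 3 was the only value above 1.87.

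Of the 5 transcription factors, *Irf9*, a DNA-binding subunit of the complex on the ISRE, was the 1 that was lower. It was at 3.74, 3.81 and 4.27 in wild-type, 3.52, 3.15 and 3.43 in null and 3.26, 3.06 and 3.78 in double-heterozygous hearts. The null arrays were below all wild-type arrays, double-heterozygous replicate 9 was not, and the log2 fold changes were -0.57 and -0.58 (standard error 0.21 for each). *Stat2*, which acts in the same complex, was at -0.39 and -0.28 and did not pass. *Irf7*, which amplifies type I interferon, was at -0.28 and -0.13. *Irf1*, induced early by interferon gamma, and *Irf8*, a factor of the macrophage lineage, lay within 0.1 of 0 in both comparisons. Their 95% confidence intervals ran from -0.36 to 0.29 for *Irf1* and from -0.56 to 0.57 for *Irf8*, taken over both comparisons.

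**Figure D3:**
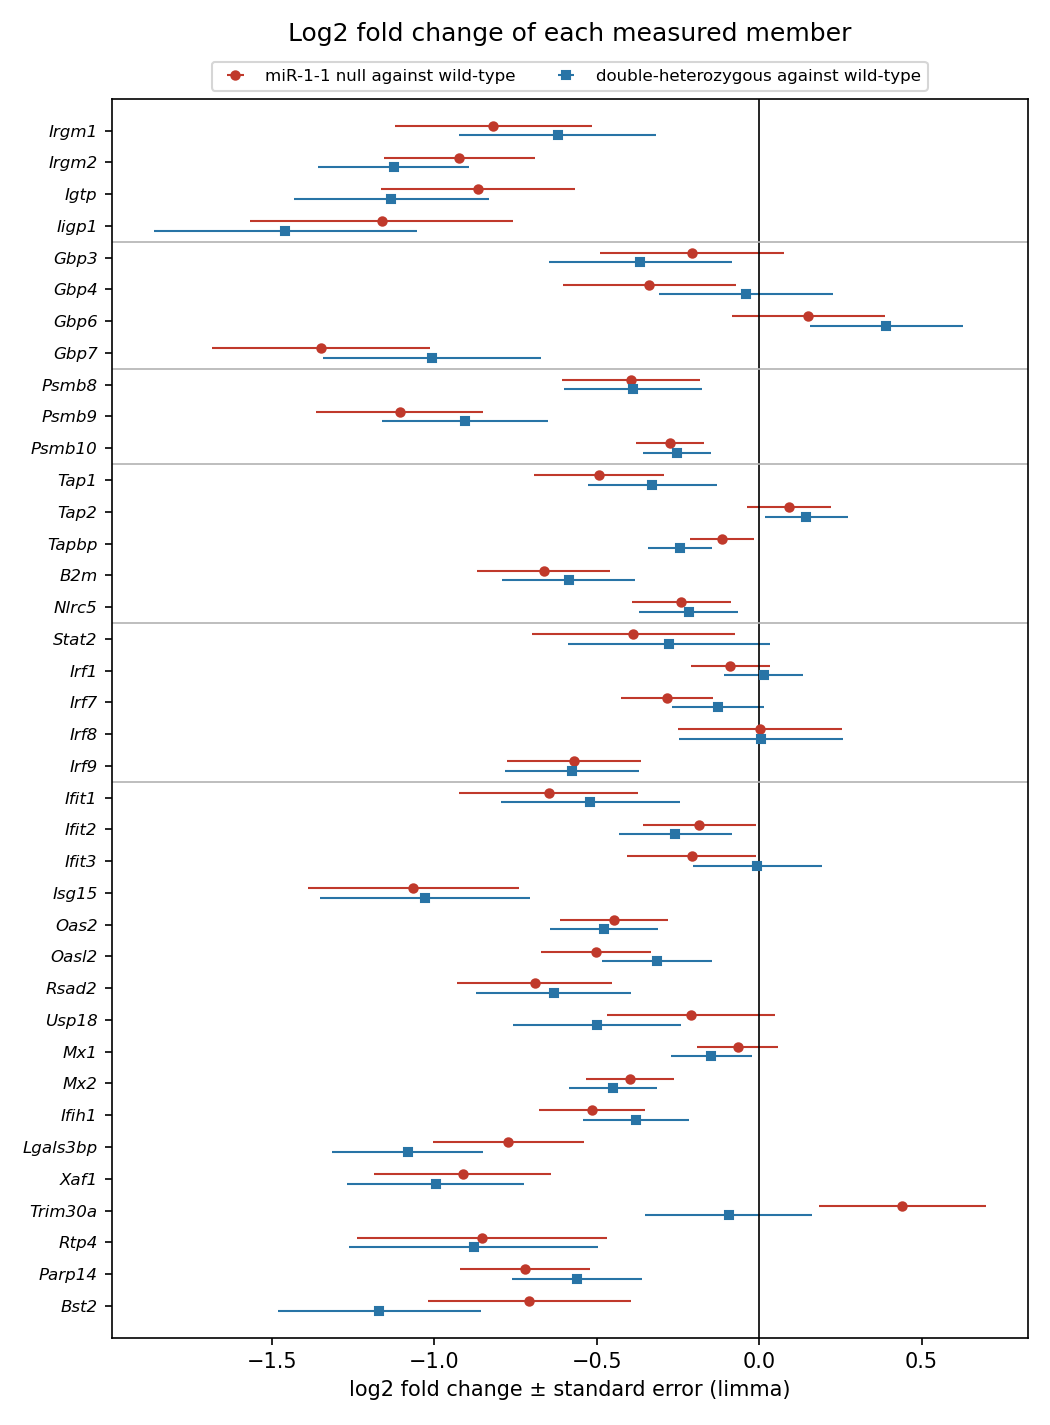
Log2 fold change with its standard error from limma (horizontal axis) for each measured gene (rows, in the order of roles), in null (red circles) and double-heterozygous (blue squares) hearts against wild-type hearts. Most points lie below 0, down to -1.46 for Iigp1, and near 0 for Irf1, Irf8 and Tap2.

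The 17 measured antiviral genes, the largest role, gave the most calls, 11 in null and 10 in double-heterozygous hearts. These are 64.7% and 58.8%, against 3.15% and 6.15% of all genes. Both shares were below those of the IRG GTPases (100% and 75%) and the immunoproteasome subunits (66.7% in each). *Isg15*, a ubiquitin-like protein attached to other proteins in the interferon response, was at 3.32, 2.13 and 3.57 in wild-type, 2.16, 1.69 and 1.97 in null and 1.89, 1.82 and 2.22 in double-heterozygous hearts. It was 2.09 and 2.04 times lower, while wild-type replicate 2 lay within the range of the mutant arrays. *Bst2*, or tetherin, which holds budding viruses at the cell surface, was at 5.10, 5.51 and 5.63 in wild-type, 5.23, 4.04 and 4.86 in null and 3.89, 4.73 and 4.12 in double-heterozygous hearts. In double-heterozygous hearts it was 2.25 times lower with no overlap, and in null hearts 1.63 times lower with replicate 4 inside the wild-type range, a call lost under 10 of the 19 alternatives. *Lgals3bp*, a secreted galectin-binding glycoprotein, was at 6.58, 7.12 and 7.01 in wild-type, 6.68, 5.71 and 6.01 in null and 5.84, 5.71 and 5.92 in double-heterozygous hearts. Only null replicate 4 reached the wild-type range, and the log2 fold changes were -0.77 and -1.08 (standard error 0.23 for each). A dimmer probe set of this gene gave -0.81 and -0.78.

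*Xaf1*, a pro-apoptotic protein that binds XIAP, was at 5.72, 6.00 and 5.91 in wild-type, 5.61, 4.46 and 4.82 in null and 4.71, 4.66 and 5.27 in double-heterozygous hearts. Its mutant arrays were all below the wild-type arrays, with log2 fold changes of -0.91 and -0.99 (standard error 0.27). *Rtp4*, which in mice has been described as a negative regulator of the type I interferon response, was at 4.69, 4.90 and 5.62 in wild-type, 5.01, 3.68 and 3.95 in null and 3.98, 3.82 and 4.77 in double-heterozygous hearts. Its groups overlapped, and values of -0.85 and -0.88 (standard error 0.38) passed in double-heterozygous hearts, a call lost under 11 of the 19 alternatives. *Parp14*, a mono-ADP-ribosyltransferase, was at 3.95, 4.34 and 4.58 in wild-type, 3.97, 3.37 and 3.37 in null and 3.57, 3.83 and 3.79 in double-heterozygous hearts. It was 1.65 and 1.48 times lower, and only null replicate 4 entered the wild-type range.

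A further group senses viral RNA or acts on it. *Ifih1*, which encodes the RNA sensor MDA5, was at 3.57, 4.10 and 4.08 in wild-type, 3.38, 3.39 and 3.44 in null and 3.74, 3.57 and 3.30 in double-heterozygous hearts. The null arrays were all below wild-type (-0.51, standard error 0.16), and double-heterozygous replicates 7 and 8 were not (-0.38, standard error 0.16), a call lost under 12 of the 19 alternatives. *Rsad2*, or viperin, an enzyme that makes a chain-terminating nucleotide, was at 2.76, 3.26 and 3.45 in wild-type, 2.94, 2.02 and 2.44 in null and 2.37, 2.64 and 2.56 in double-heterozygous hearts. It was 1.61 and 1.55 times lower, with overlap by null replicate 4. *Oas2*, which makes the 2-5A messenger that activates RNase L, was at 1.87, 2.47 and 2.41 in wild-type, 1.88, 1.82 and 1.71 in null and 1.74, 1.60 and 1.97 in double-heterozygous hearts. Wild-type replicate 1 lay within the mutant range, and the log2 fold changes were -0.45 and -0.48 (standard error 0.17 for each). Its relative *Oasl2* was at 3.12, 3.21 and 3.57 in wild-type, 2.58, 2.83 and 2.98 in null and 2.80, 2.89 and 3.27 in double-heterozygous hearts. Its null arrays did not overlap wild-type (-0.50, standard error 0.17), and it did not pass in double-heterozygous hearts (-0.31). *Mx2*, a dynamin-like GTPase, was at 2.36, 2.26 and 2.66 in wild-type, 2.26, 1.84 and 1.99 in null and 1.95, 2.01 and 1.98 in double-heterozygous hearts. All its mutant arrays were below the wild-type arrays, null replicate 4 by less than the digits shown (-0.40 and -0.45, standard error 0.14 for each).

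The IFIT genes, which bind foreign 5' ends of RNA, gave 1 call. *Ifit1* was at 3.09, 3.52 and 4.41 in wild-type, 3.13, 2.81 and 3.13 in null and 3.20, 3.13 and 3.13 in double-heterozygous hearts. Its wild-type mean rested on replicate 3 and its groups overlapped. It was lower in null hearts (-0.65, standard error 0.28), a call lost under 10 of the 19 alternatives, among them leaving out any array but wild-type replicate 1, and did not pass in double-heterozygous hearts (-0.52). *Ifit2* and *Ifit3* were between -0.26 and -0.01. *Usp18*, the protease that removes ISG15, was at -0.21 and -0.50, *Mx1* was near background, and none of these passed. *Trim30a*, a mouse TRIM protein that restrains inflammatory signalling, was the antiviral gene above 0 in null hearts, at 0.44 (standard error 0.26), and it did not pass. In the genes with close relatives (the GBP, IFIT, OAS and Mx genes and the *Igtp* and *Irgm2* pair) binding of a relative's transcript to a probe set was not tested.

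**Figure D4:**
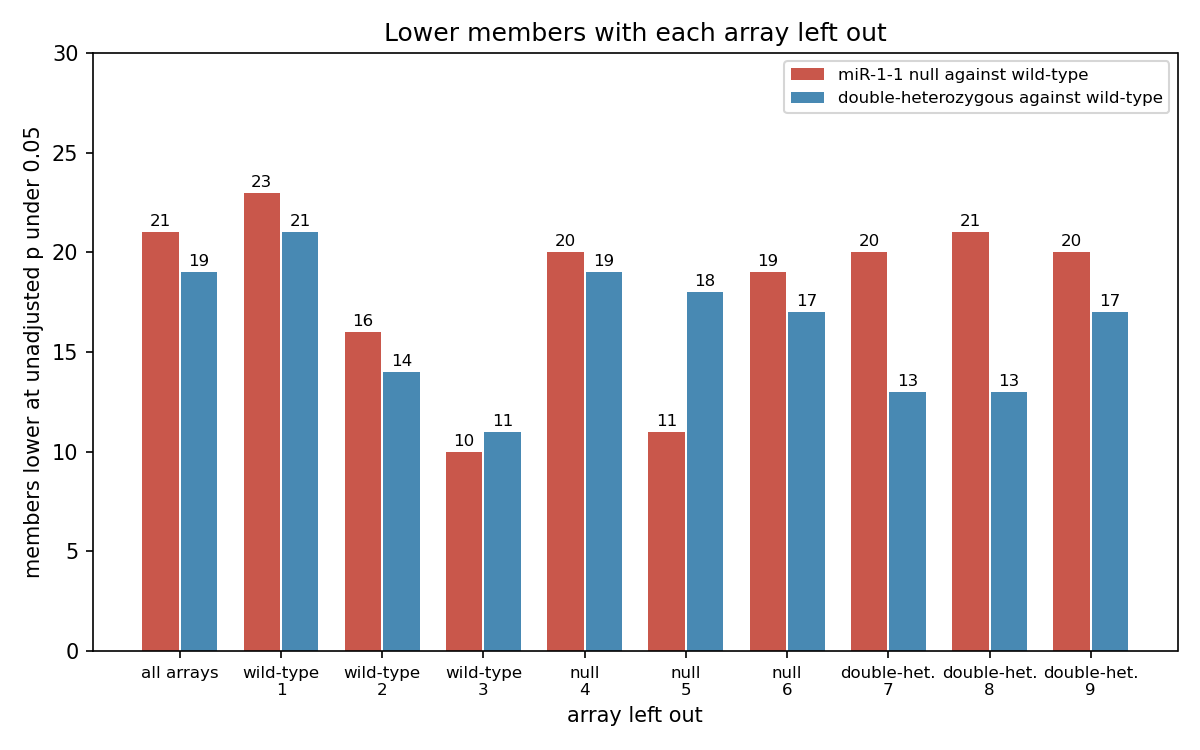
Number of the 38 genes that were lower at an unadjusted p under 0.05 from limma (vertical axis) with all arrays and with each array left out in turn (horizontal axis), for null (red) and double-heterozygous (blue) hearts against wild-type hearts. The counts run from 10 to 23 and from 11 to 21, and both are lowest without wild-type replicate 3. With 1 array left out, 2.39% to 3.60% and 4.85% to 5.97% of all genes were lower.

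Double-heterozygous and null hearts were then compared with each other. None of the 38 genes was lower and none was higher, against 3.79% and 3.59% of all genes, and none passed the adjusted threshold (0% of all genes, smallest adjusted p among the 38 of 0.700). The log2 fold change was below 0 for 16 genes, against 54.5% of all genes, with a median of 0.02. All double-heterozygous arrays were above all null arrays for 2 genes, *Irgm1* and *Gbp4*, against 4.3% of all genes. A missed threshold does not show that the levels were equal. The 95% confidence interval of the difference ran from -0.38 to 0.78 for *Psmb9*, from -0.72 to 0.32 for *Irgm2*, from -1.21 to 0.62 for *Iigp1* and from -1.16 to 0.24 for *Bst2*. The smallest unadjusted p was that of *Trim30a* (0.0668 from limma), at -0.53. Genes that passed against wild-type in 1 mutant genotype, such as *Irgm1*, *Tap1* and *Tapbp*, were thus not shown to differ between the mutant genotypes.

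The spread among arrays of 1 genotype was also compared between genes. Over the 9 arrays, with the mean of each genotype taken out, the 253 pairs of the 23 genes lower in either comparison had a median correlation of 0.53, and 87.0% of these correlations were above 0. Over the 703 pairs of all 38 genes the median was 0.36, and 74.5% were above 0, whereas over all pairs of all genes 50.03% were above 0. These are descriptions over 9 arrays, and the genes of an array share its RNA and its amplification. In wild-type hearts 33 of the 38 genes were higher on replicate 3 than on replicate 1, against 46.8% of all genes, and 30 were higher on replicate 2 than on replicate 1. Replicate 1 was the female wild-type array, and the part of sex in this order was not tested.

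The other steps of the pathway were read from lists of further genes. Of 36 other interferon-stimulated genes, 11 were lower in null and 8 in double-heterozygous hearts (30.6% and 22.2%, against 3.15% and 6.15% of all genes), with 0 and 1 higher and medians of -0.27 and -0.20. *Ifitm3*, which blocks the entry of enveloped viruses, was at 8.58, 9.04 and 9.07 in wild-type, 8.52, 7.92 and 8.15 in null and 8.16, 7.92 and 8.30 in double-heterozygous hearts, with no overlap (-0.70 and -0.77, standard error 0.19). *Parp12* (-0.42 and -0.28) was lower in both, as was *Ly6e* (-0.48 and -0.65), a membrane protein that restricts coronavirus entry in mice. *Sp110* was at -0.46 in null and 0.13 in double-heterozygous hearts, and its level in double-heterozygous hearts was above that in null hearts by 0.59 (adjusted p = 0.441 from limma). Genes upstream of these were read against the same shares of all genes, 3.15% lower in null and 6.15% in double-heterozygous hearts. For higher genes these shares were 2.57% and 4.45%. Of 9 measured interferon genes, 4 of them near background, none was lower, while 1 was higher in null and 2 in double-heterozygous hearts. In null hearts this was *Ifna1*, at 4.44, 3.69 and 4.12 in wild-type and at 4.79, 4.91 and 4.48 in null hearts (0.64, standard error 0.19). In double-heterozygous hearts *Ifna1* did not pass (0.32). The 2 higher genes there were *Ifna2* (0.36), which was near background, and *Ifne* (0.58). The mean level of *Ifne* over all arrays was 1.87, just above the background level of 1.79. Of 15 receptors and signal transducers none passed in null hearts, and in double-heterozygous hearts *Jak1*, *Ifngr2* and *Ifnar2* were lower, which is 20% (log2 fold changes of -0.22 to -0.28), and *Tyk2* was higher (0.42). Of 17 nucleic acid sensors and adaptors, *Irf3* was higher in null hearts (0.33), and *Trim25* (-0.35) and *Sting1* (-0.28) were lower in double-heterozygous hearts, which is 11.8%.

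Other genes of antigen presentation were read against the same shares. Of 8 class I heavy chains, *H2-K1* was lower in null hearts (-0.54) and *H2-T10* in both (-0.55 and -0.56), which is 25% in null and 12.5% in double-heterozygous hearts. Of 6 genes for folding and trimming, *Erap1*, the aminopeptidase that trims peptides, was lower in double-heterozygous hearts (-0.37), which is 16.7%. Of 17 genes of the constitutive proteasome and its activators, *Psme1*, an interferon-inducible activator subunit, was lower in both (-0.22 and -0.23) and *Psme4* in double-heterozygous hearts (-0.26). This is 5.88% in null and 11.8% in double-heterozygous hearts. *Psme2*, the partner subunit of *Psme1* and also interferon-inducible, was above 0 in both (0.33 and 0.16) and did not pass. Of 8 class II genes, *H2-Ab1* was lower in double-heterozygous hearts (-0.50), which is 12.5%.

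**Figure D5:**
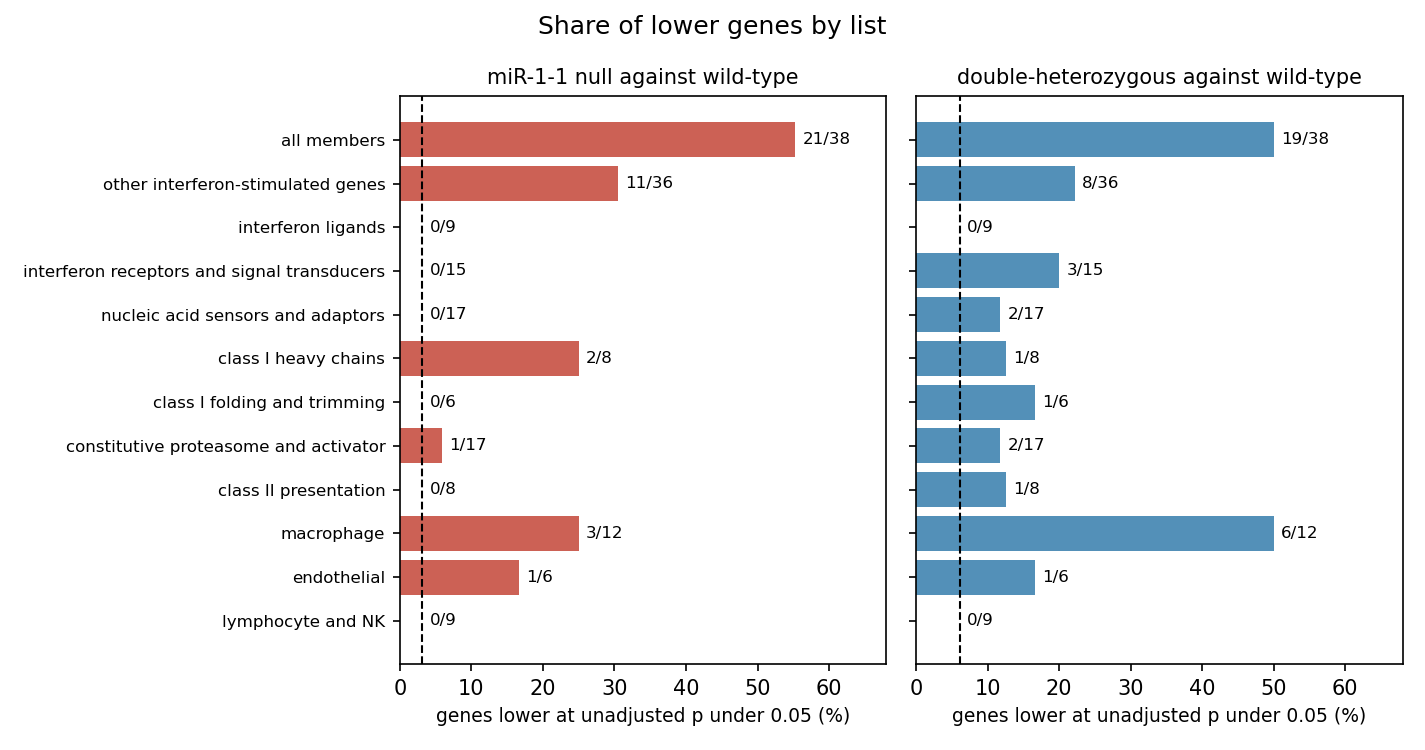
Percentage of the measured genes of a list that were lower at an unadjusted p under 0.05 from limma (horizontal axes). Null and double-heterozygous hearts are each set against wild-type, with the number lower and the number measured at each bar. Bars are drawn for these genes, the further pathway lists and the macrophage, endothelial and lymphocyte and natural killer cell markers. The cardiomyocyte, dendritic cell and neutrophil markers are not drawn. The dashed lines are the shares of all genes, 3.15% and 6.15%, and the bars of the interferon-inducible and antigen processing genes reach 55.3% and 50%.

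Marker genes of the cells that carry many of these transcripts were measured on the same arrays. In whole hearts, fewer cells of a type and less RNA per cell cannot be told apart. None of the 7 cardiomyocyte markers was near background, and their mean level was between 9.91 and 10.14 on every array. Of 12 macrophage markers 3 were lower in null hearts (*Mrc1*, *Fcgr1* and *Cx3cr1*) and 6 in double-heterozygous hearts, where all 12 had a log2 fold change below 0. These are 25% and 50%, against 3.15% and 6.15% of all genes, and the share in double-heterozygous hearts equals that of the 38 interferon-inducible genes. Their mean level ran from 3.83 to 4.21 in wild-type, 3.79 to 3.97 in null and 3.63 to 3.71 in double-heterozygous hearts, with medians of the log2 fold change of -0.11 and -0.38. No macrophage marker was near background, and the highest mean was that of wild-type replicate 2, whereas the interferon-inducible genes were highest on replicate 3. The part of macrophages in the lower interferon-inducible genes was not tested. Of 9 lymphocyte and natural killer cell markers 7 were near background, including *Cd3e*, *Cd79a* and *Ncr1*, and none passed in either direction, with mean levels of 1.59 to 1.74 in wild-type, 1.64 to 1.73 in null and 1.65 to 1.88 in double-heterozygous hearts. None of 4 dendritic cell markers and none of 5 neutrophil markers passed against wild-type. Of 6 endothelial markers *Cdh5* was lower in null (-0.25) and *Kdr* in double-heterozygous hearts (-0.33). This is 16.7% in each comparison, against 3.15% and 6.15% of all genes, and 5 of the 6 were below 0 in each. Their mean level ran from 6.86 to 6.95 in wild-type, 6.73 to 6.89 in null and 6.65 to 6.87 in double-heterozygous hearts. The part of endothelial cells in the lower interferon-inducible genes was not tested. Among the 7 cardiomyocyte markers *Myh7* was lower in both (-1.07 and -0.86), which is 14.3% in each.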

How the data were processed

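The authors extracted total RNA of hearts at postnatal day 2 with TRIzol, amplified it (NuGen Ovation Pico WTA v2) and hybridized it to 9 arrays. They deposited RMA values on the log2 scale for each probe set, made with Affymetrix Power Tools 1.12.0 per the submitters' processing notes, and these were used as they are. The sources used here do not give the genome build of the array. Of the 41345 probe sets, 23521 name a single gene, and the brightest of each gene was kept (22180 genes). In R 4.3.3, limma 3.58.1 (lmFit, contrasts.fit, eBayes) fitted 1 mean per genotype to all arrays, and p-values were adjusted over all genes by Benjamini-Hochberg. The script was tested on simulated data. An exact two-sided permutation test cannot go below p = 0.1 with 3 arrays against 3. The number of arrays limits the precision. Of 36 pairs of arrays, none shared more than 6.92% of values within 1e-06. Within a genotype 6 of the 38 genes had equal values, which can lower their variance, against 40.1% of all genes. Among these 6, *Igtp* and *Ifit1* were called lower.

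The genes and the lists (6 roles, 8 further pathway lists and 6 marker lists) were chosen with earlier results of these data known. Every measured member could be named, with the values of each array for members under an unadjusted p of 0.05, and up to 4 genes of the smallest p from each other list. *Mir133a-2*, *Mir133a-1* and the *miR-1-1* probe set were named as checks of the labels. *Cd3e*, *Cd79a* and *Ncr1*, and genes near background, were named as markers. *Psme2* was named beside its partner *Psme1*. Alternatives were other choices of arrays, moderation, normalization, probe sets, filters, thresholds and tests, *Xist* as a covariate and leaving out each array. Promoters came from RefSeq (GRCm38.p6), and 11 of the 41 genes had none in that table. Figures were drawn with Python 3.11.15 and matplotlib 3.10.9.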

Additional observations from a re-analysis of the deposited data

How the results depend on the processing

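Across 19 alternatives no single-gene call against wild-type changed its direction, and 11 of 40 were kept under all of those that could be run for them. Leaving out each array in turn moved the count of lower genes between 10 and 23 in null and between 11 and 21 in double-heterozygous hearts. The shares of all genes then ran from 2.39% to 3.60% and from 4.85% to 5.97%. The number of higher genes moved between 0 and 1 in each of the 3 comparisons, and that of genes lower in double-heterozygous than in null hearts between 0 and 3. The count of 3 came without null replicate 5, against 4.05% of all genes. Past the study's thresholds there were between 0 and 4 genes in null and between 0 and 5 in double-heterozygous hearts. The shares of all genes past these thresholds, and of higher genes, were not computed under the alternatives. With the methods' t-test 7 and 9 genes were lower (1.98% and 3.84% of all genes), and none passed the study's thresholds in either comparison. In null hearts these thresholds were passed by 0 genes in a fit of 2 genotypes, after quantile and after cyclic loess normalization, and by 2 with an intensity trend and robust moderation, with array weights, with *Xist* as a covariate and without the arrays that carried *Xist*. In double-heterozygous hearts 1 gene passed them after either normalization, with the mean of a gene's probe sets and without the arrays with *Xist*. In a fit of 2 genotypes and with *Xist* as a covariate 1 gene was higher in double-heterozygous than in null hearts. The cause was not tested. No paired analysis was possible because the labels name no litter by which arrays of different genotypes could be matched. With 3 arrays per genotype, changes of dim genes such as *Gbp6* and *Mx1* are limited by their level near background.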

Other observations

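The 3 listed genes without a probe set of their own were measured together with another gene, and these values were not compared. In the order of replicates 1 to 9, the probe set of *Gbp2* and *Gbp2b* was at 3.91, 4.44 and 3.59 in wild-type, 3.59, 3.68 and 3.48 in null and 3.68, 3.92 and 3.20 in double-heterozygous hearts. The probe set of *Oas1a* and *Oas1g* was at 0.83, 1.55 and 2.14, then 2.14, 1.31 and 1.04, then 1.29, 1.55 and 1.55. The probe set that names *Ifi47* together with an olfactory receptor gene was at 2.01, 1.72 and 2.12, then 1.98, 2.13 and 2.01, then 2.61, 1.90 and 2.19. In each of them the genotypes overlapped.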
